A study of Mus musculus with 6 samples.

Results

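The 10 genes described here, H2-K1, H2-D1, H2-T23, B2m, Tap1, Tap2, Tapbp, Psmb8, Psmb9 and Nlrc5, belong to the MHC class I antigen presentation pathway. They were chosen by symbol, and all 10 were found among the 51826 gene symbols counted in each library. Total RNA was sequenced from mammary basal cells sorted from pubertal C57B6/N mice of the SMAcreERT2/N1ICD genotype. The series title gives the question as the cell fate switch that Notch activation induces. Each of 3 pools of 2 to 3 mice gave a GFPpos and a GFPneg library, so there are 3 of each and 3 pairs. In both groups the mice carried SMAcreERT2, a Cre made active by tamoxifen and driven by the smooth muscle actin promoter, and N1ICD, an allele for the Notch1 intracellular domain. Both groups had tamoxifen once, at P21, and were collected 72 hours after it, at P24. The smooth muscle actin promoter is active in basal (myoepithelial) cells and also in pericytes and vascular smooth muscle. Libraries of labelled cells lacking the allele were not analysed here, so the effect of the allele and the kinds of cell that were labelled cannot be told apart.

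MHC class I molecules show fragments of a cell's own proteins at its surface, where cytotoxic T cells and natural killer cells read them. The proteasome cuts the proteins, the TAP transporter carries the peptides into the endoplasmic reticulum, tapasin helps to load them, and a heavy chain paired with beta-2-microglobulin carries the peptide to the surface. Most nucleated cells express the pathway, endothelial and immune cells strongly, and interferon raises it through factors that include NLRC5 and IRF1.

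The classical heavy chain and beta-2-microglobulin genes are those that the fit of replicates 2 and 3 calls, so their promoter sequence is shown, for 3 of the 8 members that matched a RefSeq promoter table (GRCm38.p6, the mm10 assembly). The H2-K1 stretch (chr17:34000348-34000547, minus strand) and the B2m stretch (chr2:122147487-122147686, plus strand) are the 200 bases before the RefSeq start. For H2-D1 only 30 bases are given (chr17:35262913-35262942, plus strand), since the GENCODE annotation places its window in a UTR. Each reads 5′ to 3′ on the gene's strand, and capitals mark matches to any of the motifs named after them.
H2-K1: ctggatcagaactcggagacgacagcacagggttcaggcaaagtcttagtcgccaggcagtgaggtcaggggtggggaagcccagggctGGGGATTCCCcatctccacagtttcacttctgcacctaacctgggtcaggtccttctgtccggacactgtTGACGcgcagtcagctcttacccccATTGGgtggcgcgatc
H2-D1: gcccagggctGGGGATTCCCcatctcctca
B2m: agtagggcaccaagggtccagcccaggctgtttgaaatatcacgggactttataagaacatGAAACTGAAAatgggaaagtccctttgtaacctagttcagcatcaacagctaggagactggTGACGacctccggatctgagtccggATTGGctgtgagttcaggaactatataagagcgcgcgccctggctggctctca

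Both strands of the full windows (250 bases before to 50 after the start) were searched for 4 motifs. An NF-kappaB-like motif (GGG and TTCCC, any 2 bases apart) lay in the windows of H2-K1 and H2-D1 and in 1.75% of all 32851 windows. It lay 111 and 171 bases before their RefSeq starts, and 125 bases before the start in another H2-K1 window. GENCODE starts H2-D1 further upstream, at 35262730. The 30 bases around the NF-kappaB-like match were identical in H2-D1 and H2-K1 at 29 positions. Likeness was not confined to this site, since 206 of 228 aligned positions of their windows were identical (90.35%). The core of the interferon-stimulated response element (GAAA and GAAA, any 2 bases apart) lay in the windows of B2m and H2-T23 and in 3.44% of all windows. The cAMP response element core TGACG was in those of H2-K1, H2-D1, B2m, Tap1 and Psmb9 (20.8% of all windows). The inverted CCAAT box ATTGG was in 7 members' windows (37.4% of all). No 2 of the capitalised matches overlap. A match is a description of the letters and not of binding. Only these letters were searched, so a site spelled otherwise would be missed, and no match does not mean no site.

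Of the 10 genes, 8 lie on chromosome 17 in or beside the MHC, and in mm10 Psmb9 (34181987 to 34187764), Tap1 (34187553 to 34197225), Psmb8 (34197721 to 34201454) and Tap2 (34203527 to 34216321) follow each other there. Psmb9 and Tap1 run in opposite directions and their annotated exons share 212 bases. B2m lies on chromosome 2 (122147686 to 122153083) and Nlrc5 on chromosome 8 (94434356 to 94527272). Sequence shared with other genes makes some counts uncertain. Of all 75-base stretches (the read length) of a gene's annotated transcripts, 3.10% of those of H2-K1, 5.56% of H2-D1, 5.91% of H2-T23, 8.27% of Tap2, 9.97% of Psmb8 and 18.6% of Tapbp also occur, on either strand, in transcripts of another gene. For B2m the share was 0%. The exons of Psmb8 overlap those of the antisense gene Gm20496 over 14.7% of their length, those of Tap2 overlap Gm15821 over 14.1% and those of Tapbp overlap Gm19412 over 24.9%. The strand setting of the counting is not given in the sources used, so reads of these pairs cannot be told apart.

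Total gene counts were 10549065 to 15825199 in GFPpos libraries, and 611465, 16043492 and 9912610 in GFPneg replicates 1, 2 and 3. In GFPneg replicate 1, 5 abundant features held 69.2% of these counts, against 22.7 to 34.7% in the other libraries. Only 188291 of its counts lay outside them, and 7454 genes were detected in it, against 15322 to 22386 elsewhere. Scaling by library size only counts these features in full, which lowers the level given to every other gene of that library. The shallow GFPneg replicate 1 also stood apart from every other library (Pearson's r across genes, 0.662 to 0.678, against 0.855 to 0.946 among the other 5). A single count in it equals 3.28 CPM (counts scaled to library size by TMM), against 0.0513 to 0.0911 CPM elsewhere, and a count of 0 there allows a level of up to 9.84 CPM (3 counts, counting error only). Basal markers were abundant in both groups. The 8 basal markers summed to 6782, 5941 and 6133 CPM in GFPpos and 8200, 12974 and 10987 CPM in GFPneg replicates 1, 2 and 3, and Krt14, a basal keratin gene, ranged from 796 to 1395 CPM in GFPpos and from 1581 to 1954 CPM in GFPneg libraries. Endothelial markers were present too, as described beside the results. Results are given with all 6 libraries and without GFPneg replicate 1.

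With the 6 libraries 0 of the 10 members passed the quasi-likelihood test of edgeR at a Benjamini-Hochberg adjusted p under 0.05, against 0.0649% of the 13873 genes tested. At an unadjusted p below 0.05 it was 1 member (B2m), against 5.26% of genes. DESeq2 called 0 members (0.342% of genes higher) and limma-voom 1 (0.389% of genes higher), B2m (log2 fold change 1.59, SE 0.33, adjusted p = 0.0346). The median log2 fold change of the members was 0.46, against 0.15 over all genes tested. With library size only as the scaling it was 0.83, against 0.31. Leaving out the 5 abundant features instead gave 0.49, against 0.16. The 3 pairs did not behave alike with TMM scaling. In replicate 3 all 10 members were higher in GFPpos than in GFPneg cells (51.7% of all genes were), in replicate 2 5 were higher (47.7% of all genes), and in replicate 1 3 were higher and 6 lower (71.4% and 24.5% of all genes).

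**Figure D1:**
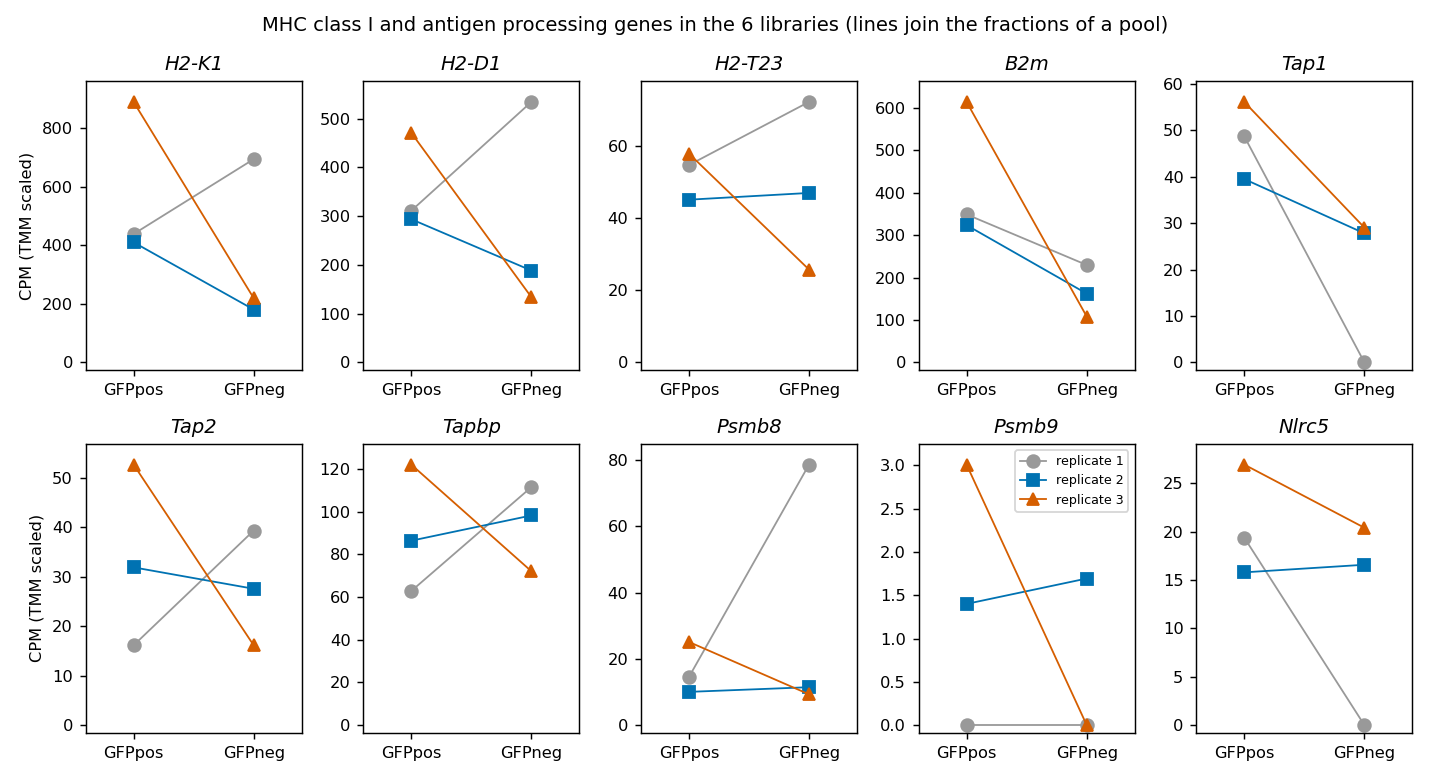
Level of each member in CPM scaled by TMM (y axis, linear) in GFPpos and GFPneg cells (x axis), 1 point per library, with lines joining the fractions of a pool. H2-K1, H2-D1, B2m, Tap1 and Tap2 are higher in GFPpos cells of replicates 2 and 3. On this scaling, with a TMM factor of 0.501, the GFPneg library of replicate 1 (grey) is the highest of all for H2-D1, H2-T23 and Psmb8.

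H2-K1 encodes a classical class I heavy chain and had 439, 411 and 891 CPM in GFPpos replicates 1, 2 and 3, against 695, 181 and 219.6 CPM in the GFPneg ones. Replicate 3 was the highest GFPpos library. With TMM scaling the groups overlapped only because of GFPneg replicate 1, where 212 counts gave a 95% interval of 605 to 795 CPM. That interval takes the TMM factor of 0.501 as given. The means were 580.2 ± 269 CPM in GFPpos cells, and 365 ± 286 CPM in GFPneg ones (SD, n = 3 each), and the log2 fold change was 0.69 (SE 0.52, adjusted p = 1.00, edgeR). With library size only as the scaling it was 1.315 (SE 0.60). Library size takes in the 5 abundant features, and leaving these out instead gave 0.72 (SE 0.51).

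H2-D1, the other classical heavy chain gene, followed the same order of libraries within GFPpos cells. It had 311, 294 and 471 CPM in GFPpos cells, against 534, 188 and 134 CPM in GFPneg cells. With TMM scaling GFPneg replicate 1 was the highest of the 6, and the other GFPneg libraries lay below all GFPpos ones. The log2 fold change was 0.35 (SE 0.49, adjusted p = 1.00). With library size only as the scaling it was 0.94 (SE 0.58). Leaving out the 5 abundant features instead gave 0.39 (SE 0.49).

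H2-T23 encodes the nonclassical heavy chain Qa-1, a ligand of natural killer cell receptors. It had 54.6, 45.05 and 57.8 CPM in GFPpos cells, against 72.1, 46.9 and 25.7 CPM in GFPneg cells, and the groups overlapped with or without GFPneg replicate 1. Its log2 fold change was 0.17 (SE 0.55, adjusted p = 1.00).

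B2m encodes beta-2-microglobulin, the light chain that all these heavy chains need. It had 349, 323 and 614 CPM in GFPpos cells, against 229.5, 162 and 108 CPM in GFPneg cells, so that the groups did not overlap and GFPpos cells were higher in all 3 pairs. Its means were 429 ± 161 CPM for GFPpos and 167 ± 60.8 CPM for GFPneg cells (SD, n = 3 each), with a log2 fold change of 1.38 (SE 0.43, adjusted p = 0.625). It was 2.00-fold higher in GFPpos cells of replicate 2 and 5.68-fold in replicate 3. Of the 10 members, B2m and Tap1 did not overlap between the groups and were higher in GFPpos cells, a pattern found in 9.53% of all genes tested.

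Tap1 and Tap2 encode the subunits of the peptide transporter. Tap1 had 48.7, 39.5 and 56.2 CPM in GFPpos cells, against 0, 27.8 and 29.1 CPM in GFPneg cells, with no overlap between the groups and a log2 fold change of 1.19 (SE 0.76, adjusted p = 1.00) that takes in the count of 0 in GFPneg replicate 1. Without that library it was 0.78 (SE 0.35, adjusted p = 0.526). Tap2 had 16.1, 31.9 and 52.7 CPM in GFPpos cells, against 39.3, 27.6 and 16.1 CPM in GFPneg cells. The groups overlapped, and the log2 fold change was 0.34 (SE 0.68, adjusted p = 1.00).

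Tapbp encodes tapasin, which bridges the transporter and the empty heavy chain. It had 62.8, 86.4 and 122 CPM in GFPpos cells, against 111, 98.2 and 72.1 CPM in GFPneg cells, with means of 90.4 ± 29.8 CPM in GFPpos and 93.9 ± 20.1 CPM in GFPneg libraries (SD, n = 3 each). The groups overlapped throughout. The log2 fold change of -0.04 (SE 0.45, adjusted p = 1.00) turned positive with library size only as the scaling (0.29), with limma-voom and without several libraries. It stayed negative, at -0.017, when the 5 abundant features were left out.

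Psmb8 and Psmb9 encode catalytic subunits that replace their constitutive counterparts in the immunoproteasome. Psmb8 had 14.5, 10.04 and 25.1 CPM in GFPpos cells, against 78.7, 11.4 and 9.29 CPM in GFPneg cells. The high GFPneg value rests on 24 counts (95% interval 50.4 to 117 CPM), and the direction turned with it, from a log2 fold change of -0.83 (SE 0.87) with the 6 libraries to 0.69 (SE 0.59) without it (adjusted p = 1.00 and 0.874). Psmb9 was close to the detection limit, with 0, 18 and 58 counts in GFPpos and 0, 33 and 0 in GFPneg libraries. The 0 in GFPpos replicate 1 and in GFPneg replicate 3 allow up to 0.272 and 0.273 CPM.

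Nlrc5 encodes the transactivator of class I genes. It had 19.4, 15.8 and 26.9 CPM in GFPpos cells, against 0, 16.6 and 20.4 CPM in GFPneg cells. Apart from the 0 of the shallow library the groups overlapped, and the log2 fold change was 0.57 (SE 0.85, adjusted p = 1.00), and 0.18 (SE 0.47, adjusted p = 0.980) without that library.

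**Figure D2:**
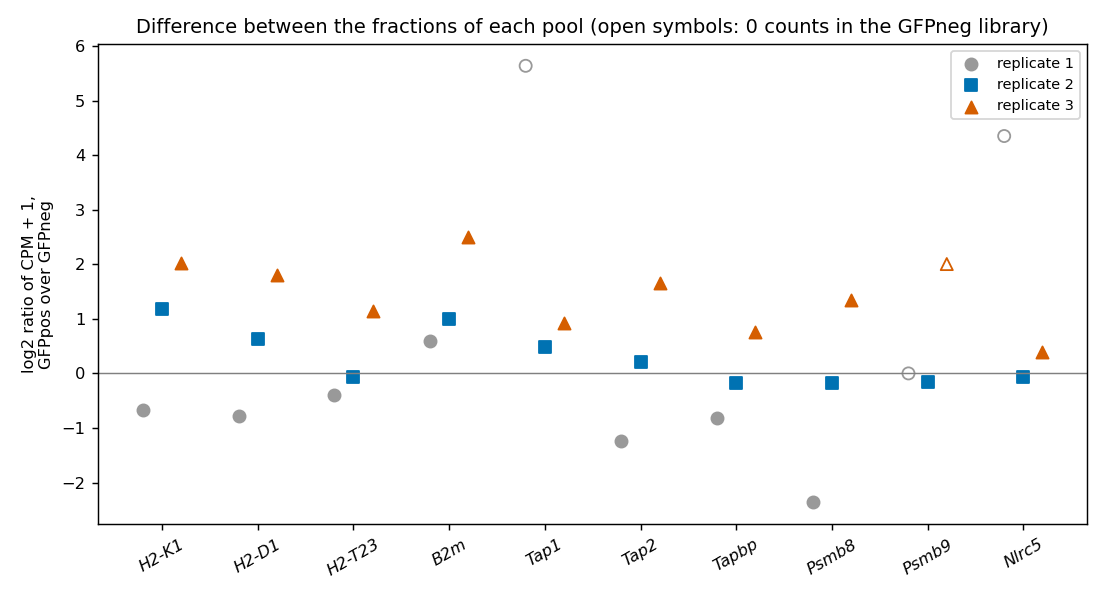
Log2 ratio of CPM + 1, GFPpos over GFPneg (y axis), for each member (x axis) and each of the 3 pools. Open symbols mark a GFPneg library with 0 counts. The replicate 3 ratio (triangles) is above 0 for all 10 members, and the replicate 2 ratio (squares) is 1.18 for H2-K1, 0.64 for H2-D1 and 0.99 for B2m and between -0.18 and 0.49 for the others.

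H2-K1 was 2.27-fold higher in GFPpos cells of replicate 2 and 4.06-fold higher in replicate 3, and H2-D1 1.56-fold and 3.52-fold. Without GFPneg replicate 1, GFPpos cells lay above GFPneg cells with no overlap for H2-K1, H2-D1, B2m and Tap1, 4 of the 10 members against 12.6% of all genes, and no member lay below (13.6% of all genes). All 10 log2 fold changes were then positive, with a median of 0.73 against 0.04 over 15274 genes. They were 1.55 (SE 0.36, adjusted p = 0.0992) for H2-K1, 1.17 (SE 0.31, adjusted p = 0.155) for H2-D1 and 1.68 (SE 0.35, adjusted p = 0.0606) for B2m in edgeR's test, and 0 members passed, against 0.602% of all genes.

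Each pair of fractions was sorted from 1 pool. With the replicate number as a block over all 6 libraries 0 members passed, against 0.44% of genes, and B2m had the smallest adjusted p (0.414). The block over replicates 2 and 3 alone called 3 of the 10 members higher and 0 lower in GFPpos cells, against 2.52% and 1.41% of 15346 genes. These were H2-K1 (log2 fold change 1.62, SE 0.33, adjusted p = 0.000102), H2-D1 (1.25, SE 0.33, adjusted p = 0.00604) and B2m (1.77, SE 0.34, adjusted p = 1.70e-05). That fit has 2 pairs and 1 residual degree of freedom per gene, so its p-values rest on the spread shared across genes. The differences were larger in replicate 3 than in replicate 2 for all 10 members. Without both libraries of replicate 3 the log2 fold changes were -0.03 for H2-K1, -0.24 for H2-D1 and 0.79 for B2m.

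**Figure D3:**
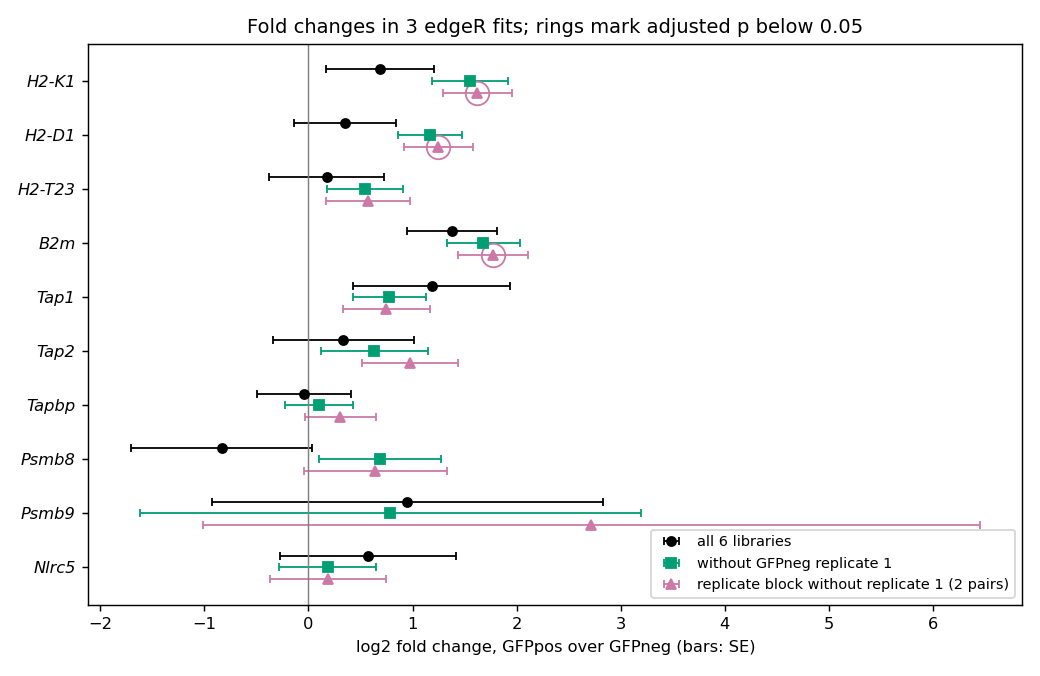
Log2 fold change of GFPpos over GFPneg cells (x axis, bars give the SE) for each member (y axis) in edgeR fits with all 6 libraries, without GFPneg replicate 1, and with the replicate block without replicate 1. Rings mark adjusted p below 0.05, which H2-K1, H2-D1 and B2m reached in the fit of 2 pairs, and Psmb8 changes side when GFPneg replicate 1 is left out.

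Per kilobase of annotated exon, B2m stood highest in GFPpos cells at 498 ± 187 CPM per kb (SD, n = 3), followed by H2-K1 at 197 ± 91.7 and H2-D1 at 139 ± 37.9. Tapbp (24.9 ± 8.22 CPM per kb) and H2-T23 (18.2 ± 2.30) came next, then Tap2 (8.88 ± 4.85), Tap1 (8.79 ± 1.52), Psmb8 (4.90 ± 2.29), Nlrc5 (2.44 ± 0.670) and Psmb9 (0.402 ± 0.412). The mean levels of GFPneg replicates 2 and 3 fell in the same order, with B2m at 157, H2-K1 at 68.1 and H2-D1 at 62.5 CPM per kb. Among the GFPpos libraries the ranges of neighbours overlapped for H2-K1 and H2-D1, Tapbp and H2-T23, Tap2 and Tap1, Tap1 and Psmb8, and Psmb8 and Nlrc5. The other neighbours in that order did not overlap.

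Within a library the ratio of B2m to H2-K1 counts was 0.794, 0.787 and 0.689 in GFPpos replicates 1, 2 and 3, and 0.330, 0.897 and 0.493 in the GFPneg ones. The ratio of H2-D1 to H2-K1 was 0.709, 0.715 and 0.529 in GFPpos and 0.769, 1.04 and 0.610 in GFPneg libraries. The GFPpos ratios of both lay within the range of the GFPneg ones except that of H2-D1 in replicate 3.

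The genes with the profile most like the members' mean over the 6 libraries were Map3k11, Plekhg3, Casp8, Ablim1 and Rnf40, by root mean square difference of centred log2(CPM + 1). The difference was 0.146 for Map3k11 and 0.213 for Rnf40, on a log2 scale. Casp8 had 29.8, 24.5 and 37.4 CPM in GFPpos cells, and 16.4, 20.4 and 13.5 CPM in GFPneg ones. The members' mean takes in the 0 counts of Tap1, Psmb9 and Nlrc5 in GFPneg replicate 1. Its centred value was 0.04 in GFPpos and -0.39 in GFPneg cells of replicate 1. In contrast, 6 of the 10 members were higher in GFPneg than in GFPpos cells of that replicate, so there the likeness is to the mean and not to most members.

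Of 16 other class I and class I-like heavy chain genes (of the Q, T and M regions, with Cd1d1, Mr1, Hfe and Fcgrt), 12 were tested and 0 passed with the 6 libraries, at a median log2 fold change of -0.13. Without GFPneg replicate 1, 2 of 12 rose and 0 fell, against 0.412% higher and 0.19% lower of all genes. These were H2-Q6 (43.7, 48.3 and 93.3 CPM in GFPpos cells, against 105, 6.16 and 12.3 CPM in GFPneg cells, log2 fold change 2.77, SE 0.49, adjusted p = 0.0255) and H2-Q7 (49.0, 30.1 and 69.0 CPM in GFPpos, against 65.6, 4.47 and 7.84 CPM in GFPneg cells, log2 fold change 3.03, SE 0.51, adjusted p = 0.0181). Of the 75-base stretches of H2-Q6 and H2-Q7, 21.1% and 16.95% are shared with other genes, so that their counts cannot be fully separated. The sum of H2-K1, H2-D1, H2-Q4, H2-Q6 and H2-Q7, which does not depend on how reads were split among them, was 946, 858 and 1636 CPM in GFPpos cells, and 1561, 450.5 and 453 CPM in GFPneg ones. Stretches shared with genes outside the sum, such as H2-Q10 and H2-Q5, still leave it uncertain. H2-M2 had 2.72, 4.51 and 7.58 CPM in GFPpos cells, against 233, 0.205 and 0 CPM in GFPneg cells, and H2-M3 1.99, 2.26 and 3.43 CPM in GFPpos, against 68.9, 1.49 and 0.729 CPM in GFPneg cells.

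Of 8 chaperone, trimming and loading genes 0 passed with the 6 libraries (7 positive, median log2 fold change 0.27). Calr, which encodes calreticulin, a chaperone of the loading complex, stood at 627 ± 112 CPM for GFPpos and 496 ± 33.8 CPM for GFPneg cells. Its partner Pdia3 had 441, 449 and 363 CPM in GFPpos cells, and 39.3, 415 and 318 CPM in GFPneg ones, and Tapbpl, a tapasin relative, 16.1, 7.86 and 8.41 CPM in GFPpos, against 3.28, 9.91 and 1.91 CPM in GFPneg cells. The median of this list was 0.23 without GFPneg replicate 1.

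Constitutive proteasome genes did not pass either (0 of 14, median 0.51 with the 6 libraries and 0.18 without GFPneg replicate 1, where 11 of the 14 had 0 counts). Psmb6 and Psmb5 encode constitutive catalytic subunits, the first of them the one that Psmb9 replaces and the second the one that Psmb8 replaces. Psmb6 had 26.6, 22.2 and 19.6 CPM in GFPpos cells, against 32.8, 31.3 and 17.0 CPM in GFPneg cells, and Psmb5 0.997, 5.29 and 3.37 CPM in GFPpos, against 0, 2.57 and 1.37 CPM in GFPneg cells. The constitutive proteasome genes with the smallest p were Psma7 (log2 fold change 1.14, adjusted p = 1.00), Psmb2 and Psma6. Of the remaining immunoproteasome and activator genes 3 of 4 were tested and 0 passed, with Psmb10, the third inducible subunit, at 8.43, 10.04 and 11.9 CPM in GFPpos, against 0, 7.55 and 1.37 CPM in GFPneg cells. Psme1 had 66.6, 30.7 and 43.1 CPM in GFPpos, against 3.28, 38.8 and 28.7 CPM in GFPneg cells, and Pomp, an assembly factor, 25.8, 22.5 and 14.9 CPM in GFPpos, against 0, 24.8 and 21.96 CPM in GFPneg cells.

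Regulators of the pathway were mixed. Of 25 transcription factor and interferon signalling genes 0 passed with the 6 libraries (15 positive, median 0.16). Jak2, a kinase of the interferon gamma receptor, had 143, 118 and 186 CPM in GFPpos cells, against 184, 57.6 and 73.8 CPM in GFPneg cells, and it was the 1 of 25 regulators that the block over replicates 2 and 3 called higher, where 2.52% of all genes were (log2 fold change 1.21, SE 0.34, adjusted p = 0.0122, edgeR). Jak1, another interferon receptor kinase, was higher in GFPpos cells of all 3 pairs, at 474 ± 149 CPM in GFPpos, against 265 ± 36.4 CPM in GFPneg cells (log2 fold change 0.84, SE 0.39, adjusted p = 0.938). Stat2, a transcription factor gene of the response to type I interferon, had 33.4, 32.9 and 50.5 CPM in GFPpos cells, against 249, 57.9 and 121 CPM in GFPneg cells (log2 fold change -1.83, SE 0.55, adjusted p = 0.546). Irf1, a direct activator of class I promoters, stood at 162 ± 30.5 CPM in GFPpos cells, and 161 ± 68.8 CPM in GFPneg ones. Irf8 had 19.3, 14.8 and 28.7 CPM in GFPpos, against 0, 2.77 and 11.6 CPM in GFPneg cells, and Ifngr1, a receptor chain for interferon gamma, 33.7, 31.7 and 67.0 CPM in GFPpos, against 42.6, 34.9 and 24.0 CPM in GFPneg cells.

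Interferon-stimulated genes did not share a direction. Of 20 listed, 16 were tested and 0 passed with the 6 libraries (10 positive, median 0.18). Without GFPneg replicate 1, 1 of 20 rose (0.412% of all genes did), Cxcl9, a chemokine gene induced by interferon gamma, with 39.3, 38.4 and 40.3 CPM in GFPpos cells against 91.8, 0.821 and 2.46 CPM in GFPneg cells (log2 fold change 4.64, SE 0.61, adjusted p = 0.00401), and 9 of the 20 were positive. The block over replicates 2 and 3 called 3 of 20 higher, against 2.52% of all genes, Cxcl9, Cxcl10 (adjusted p = 0.0364) and Parp14 (adjusted p = 0.000216). Ifit1, a target of type I interferon, had 1.81, 10.2 and 0.882 CPM in GFPpos cells, against 118, 16.9 and 7.47 CPM in GFPneg cells.

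Markers of endothelial cells, which express class I genes strongly, moved with the members in replicate 3. All 10 endothelial markers were tested and 0 passed with the 6 libraries (6 positive, median log2 fold change 0.23). Their summed level was 1008, 914 and 2558 CPM in GFPpos replicates 1, 2 and 3, against 1439, 1123 and 843 CPM in the GFPneg ones, and that of the 10 class I members 1315, 1258 and 2319.8 CPM in GFPpos, against 1761, 761 and 634 CPM in GFPneg cells. In GFPpos replicate 3 10 of the 10 members and 7 of the 10 endothelial markers were at their highest of the 5 deep libraries, which holds for 22% of all genes. Pecam1, an endothelial adhesion gene, had 367, 324 and 981 CPM in GFPpos cells, against 718, 242 and 176 CPM in GFPneg cells. It was 1.34-fold higher in GFPpos cells of replicate 2 and 5.58-fold higher in replicate 3, and the block over those replicates called it higher, with Cdh5 and Eng, 3 of the 10 markers against 2.52% of all genes. The ratio of H2-K1 to Pecam1 counts was 1.19, 1.27 and 0.908 in GFPpos and 0.968, 0.746 and 1.25 in GFPneg libraries. That of H2-D1 to Pecam1 was 0.846, 0.907 and 0.480 in GFPpos and 0.744, 0.778 and 0.761 in GFPneg libraries. For B2m to Pecam1 it was 0.949, 0.998 and 0.6255 in GFPpos and 0.320, 0.669 and 0.615 in GFPneg libraries, higher in GFPpos cells of each pair. In replicate 2, 4 of the 10 endothelial markers and 5 of the 10 members were higher in GFPpos than in GFPneg cells. The endothelial markers that were lower there included Flt1, a VEGF receptor gene, at 97.8 CPM in GFPpos against 254 CPM in GFPneg cells. In replicate 3, 9 of the 10 were higher. The part of endothelial cells in the class I differences was not tested. In bulk RNA, more cells of a type and more RNA per cell cannot be told apart.

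**Figure D4:**
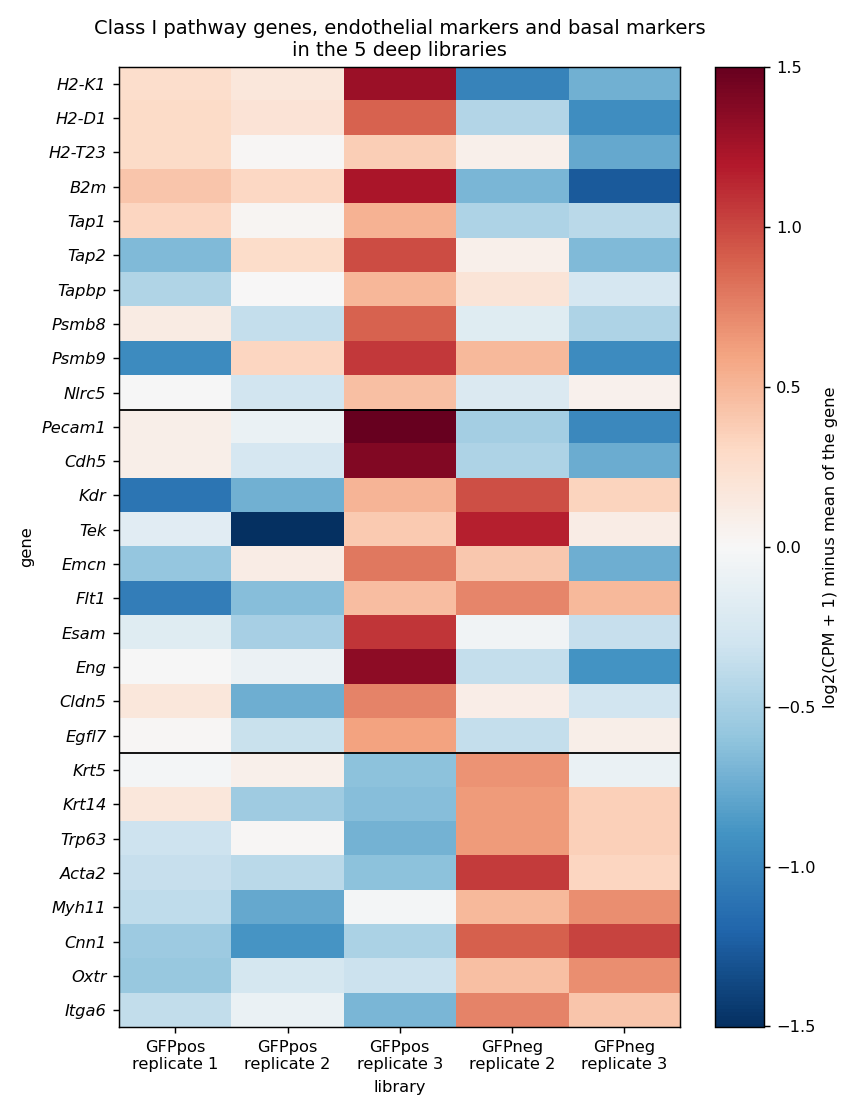
Log2(CPM + 1) of each gene minus its mean over the 5 deep libraries (colour), for the 10 members (top), 10 endothelial markers (middle) and 8 basal markers (bottom), by library (x axis). Among these 5, GFPpos replicate 3 is the highest library for all 10 members and for 7 of the 10 endothelial markers, and all 8 basal markers are lower there than in GFPneg replicates 2 and 3.

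Immune cell markers were near 0. All 10 stayed below 10 CPM in each of the 5 deep libraries, Adgre1 and Itgax, which mark macrophages and dendritic cells, had 0 counts in all 6, and the list summed to 5.62, 8.17 and 20.8 CPM in GFPpos and 9.84, 8.11 and 10.8 CPM in GFPneg libraries. Ptprc, the pan-leukocyte gene, had 0.544, 2.49 and 4.31 CPM in GFPpos cells and 0 counts in all GFPneg libraries. MHC class II genes were low as well, with 4 of 10 tested and 0 passing. Cd74, the invariant chain gene of class II, had 8.61, 19.2 and 44.7 CPM in GFPpos cells, against 36.1, 1.75 and 3.74 CPM in GFPneg cells. The block over replicates 2 and 3 called it higher (log2 fold change 3.54, SE 0.66, adjusted p = 1.08e-05, edgeR). It was the 1 of 7 class II genes tested there that was called, against 2.52% of all genes called higher and 1.41% lower. Ciita, the class II counterpart of Nlrc5, had 0, 4.44 and 0 CPM in GFPpos cells, and 0, 0.770 and 0 CPM in GFPneg ones.

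Of the 8 luminal, 8 fibroblast and 8 basal markers 0 passed with the 6 libraries. The 8 luminal markers summed to 904, 795 and 636 CPM in GFPpos and 239, 486 and 513 CPM in GFPneg libraries. The 8 fibroblast markers summed to 440, 340 and 387 CPM in GFPpos and 754, 1331 and 1658 CPM in GFPneg libraries. Postn alone made up 324, 199 and 280 CPM of the GFPpos sums and 302, 1152 and 1469 CPM of the GFPneg ones. Of the 6 fibroblast markers tested, 5 were lower in GFPpos cells with the 6 libraries and 1, Fbln1, was higher. Lum had 0 counts in all libraries. Cnn1, a basal contractile gene, was lower in GFPpos cells of all 3 pairs (96.9 ± 14.1 CPM in GFPpos, against 266 ± 44.7 CPM in GFPneg cells) and fell in the edgeR fit that omits GFPneg replicate 1 (adjusted p = 0.0158), as did the fibroblast marker Postn (adjusted p = 0.00378), while Kit, a luminal progenitor receptor gene, rose (adjusted p = 0.00523). In that fit 1 of 8 basal and 1 of 6 fibroblast markers fell, against 0.19% of all genes, and 1 of 8 luminal markers rose, against 0.412%. The part of these cell types in the class I differences was not tested.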

How the data were processed

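The authors deposited whole-number counts of reads per gene symbol for each library, made with HTSeq on mm10 alignments, with TopHat2, cutadapt and FastQC also named, per the submitters' processing notes. The annotation was GENCODE, per the names of the deposited files. Its release, the tools' versions and the strand setting were not stated. Per the labels' protocols the reads were paired and 75 bases long. Rows that name no gene were left out of library sizes, and the no-feature share was 66.4% in GFPneg replicate 1 and 28.8 to 40.5% in the others.

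GFPpos was compared with GFPneg over 13873 genes that passed edgeR's filterByExpr, with TMM scaling and edgeR's quasi-likelihood test (edgeR 4.0.16, R 4.3.3, group as the only term, Benjamini-Hochberg adjustment over all genes tested). The SE is the log2 fold change divided by the square root of the F statistic. Levels are CPM on TMM-scaled library sizes. DESeq2 1.42.0, limma-voom 3.58.1, other scalings and filters, leaving out libraries and a replicate block were alternatives. Pair ratios use a pseudocount of 1 CPM. Intervals are exact Poisson (95%) and, like the floors of 3 counts, cover counting error only. The replicate number pairs the samples, since both fractions came from 1 pool, although deviations of same-numbered libraries correlated at only -0.0155, 0.0953 and 0.0107. The p-values come from at most 3 pools. In edgeR they also draw on a spread shared across genes. The fit with group as the only term had 4 residual degrees of freedom per gene and 11.31 from the shared spread. The replicate block over all libraries had 2 residual degrees of freedom, and the block without replicate 1 had 1. In both block fits the weight of the shared spread was infinite, so a gene's own spread did not enter. The edgeR, replicate block, DESeq2 and limma-voom fits over all 6 libraries were run on simulated counts. These had the same spread for every gene and no pair effect. The block without replicate 1 was not run on them, so they do not bear on its calls.

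The members and gene lists were chosen with earlier results of these data known. Besides the members, up to 3 genes of a list with the smallest p in the 6-library test, a few set beside a result (Ifngr1, Irf1, Psmb5, Psmb6, Psmb10, Calr, Ciita, Cd74, Ptprc) and the 5 of most similar profile (outside the lists, mean of at least 20 CPM) were to be named. Others were chosen after their values were seen. Coordinates are from GENCODE M21 (mm10), and promoter windows from RefSeq. A gene of the regulator list is not reported here.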

Additional observations from a re-analysis of the deposited data

How the results depend on the processing

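Each of the 19 other settings gave values, except for Psmb9 without replicate 2, where it did not pass the low count filter. Against 8 genes higher in GFPpos cells over all genes, library size only gave 5, no low count filter 65, DESeq2 51, limma-voom 54, the replicate block 43, DESeq2 with the block 77 and the block without replicate 1 386. Leaving out libraries gave 2 to 63. Against 1 gene lower, no filter gave 236, DESeq2 104, limma-voom 24, the replicate block 18, DESeq2 with the block 90 and the block without replicate 1 216, and leaving out libraries 1 to 68. Members called higher were 1 with limma-voom and 3 with the block without replicate 1, and 0 in the other alternatives. No member was called lower in any. The members' median ran from -0.24 to 0.88 when libraries were left out.

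B2m (0.79 to 1.81, adjusted p from 1.70e-05 to 1.00), Tap1 and Nlrc5 stayed positive in all 19. Signs turned without replicate 3 for H2-K1 (-0.026), H2-D1 (-0.24), H2-T23 (-0.23), Tap2 (-0.46) and Psmb9 (-0.81), without GFPneg replicate 3 for H2-T23 (-0.15), and without GFPpos replicate 3 for Tap2 (-0.16) and Psmb9 (-0.08). Psmb9 was -0.050 in DESeq2 with the block. Tapbp turned positive with library size only (0.29), limma-voom (0.039), without GFPpos replicate 1 (0.18), GFPneg replicate 1 (0.10), GFPneg replicate 2 (0.0061), replicate 1 (0.31) and replicate 2 (0.03), and in the block without replicate 1 (0.31). Psmb8 did so with limma-voom (0.48), without GFPneg replicate 1 (0.69), without replicate 1 (0.78) and in the block without replicate 1 (0.64). When libraries were left out the highest log2 fold changes were 1.72 for H2-K1, 1.27 for H2-D1, 0.55 for H2-T23, 0.97 for Tap2 and 7.02 for Psmb9 (without GFPneg replicate 2, where both remaining GFPneg libraries had 0 counts, so that this fitted value is no bound), and the lowest were -0.49 for Tapbp and -1.80 for Psmb8. The causes were not tested. The median of all genes was 0.15, and 0.31 with library size only. By counting error alone, the depth of GFPneg replicate 1 limits members at or under about 10 CPM there. Yet Tap1 and Nlrc5 had 0 counts there, at 27.8 to 56.2 and 15.8 to 26.9 CPM in the other libraries. The cause of these 0 counts was not tested.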
